A study of Mus musculus with 12 samples.

Results

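The data described here are the gene counts of 6 mouse livers on normal chow, 3 labelled HuRHep-/- and 3 labelled WT, taken from a series of 12 livers whose other 6 were fed a high-fat, cholesterol and fructose (HFCF) diet. All genes that passed a low-count filter were kept, with no choice by their change. These were 13526 of the 20775 genes listed for chow. HuR, encoded by Elavl1, was the gene targeted, and the question was which hepatocyte RNAs differ when it is deleted without a dietary challenge.

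According to the labels, all mice were C57BL/6N males of 4 to 6 months that carried a floxed Elavl1 allele (HuR flox/flox). The HuRHep-/- mice had received AAV8-Tbg-Cre, a liver-directed virus in which a hepatocyte promoter drives Cre recombinase. The WT controls had received AAV8-Tbg-null, so the floxed allele and the virus were shared by both groups and the recombinase was not. The methods of the study instead describe a cross with mice that carry Cre under the albumin promoter, and younger animals, so the route of deletion is not settled by the sources used here. Each library was made from total RNA of the whole liver of 1 mouse, and p-values below measure the spread between these mice.

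HuR is an RNA-binding protein that shuttles between nucleus and cytoplasm and binds AU-rich and U-rich stretches, mostly in introns and 3′ untranslated regions (3′UTRs), where it is known to stabilise mRNAs or alter their splicing and translation. In liver it has been studied in lipid transport, in mRNA decay and in inflammation. Hepatocytes also make most plasma proteins, and a set of these, the acute-phase proteins, is known to be induced in hepatocytes by IL-6 and IL-1 during inflammation.

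Sequences are given first for 2 neighbouring genes that rose and for 2 mRNAs with an AU-rich stretch. Mt1 and Mt2, which encode the zinc-binding metallothioneins, lie next to each other on chromosome 8 and rose, with values below. Metal response elements, which bind the zinc-sensing factor MTF1, share the core TGCACNC or TGCGCNC. In the RefSeq promoter windows of build GRCm38.p6, which run from 250 bases before to 50 bases after the start, both on the plus strand, matches to this core on either strand are in capitals.
Mt1, chr8:94178839-94179138: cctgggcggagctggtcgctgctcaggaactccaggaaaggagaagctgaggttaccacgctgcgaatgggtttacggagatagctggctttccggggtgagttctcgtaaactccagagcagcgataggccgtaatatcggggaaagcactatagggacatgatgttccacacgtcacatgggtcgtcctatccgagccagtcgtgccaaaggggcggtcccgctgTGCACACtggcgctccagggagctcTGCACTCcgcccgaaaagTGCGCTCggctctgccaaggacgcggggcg
Mt2, chr8:94172368-94172667: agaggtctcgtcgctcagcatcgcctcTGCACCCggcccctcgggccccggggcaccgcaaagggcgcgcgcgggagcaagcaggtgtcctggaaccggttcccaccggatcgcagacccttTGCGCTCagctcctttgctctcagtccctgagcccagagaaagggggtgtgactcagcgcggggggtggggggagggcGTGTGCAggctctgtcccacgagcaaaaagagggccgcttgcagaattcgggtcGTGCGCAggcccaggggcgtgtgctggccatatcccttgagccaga
The Mt1 window held 3 matches and the Mt2 window held 4. At least 1 match was present in 25.6% of all 27025 promoter windows, and at least 3 were present in 2% of them. Among the protein-coding genes called higher below, 44 of the 115 with a window (38.3%) held a match, against 29 of 85 (34.1%) of those called lower and 35.6% of the tested protein-coding genes with a window. At least 3 matches were held by 6 of the higher (5.22%), 3 of the lower (3.53%) and 3.31% of the tested genes.

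The AU-rich nonamer TTATTTATT is a core of many AU-rich elements. Its first copy in the 3′UTR is in capitals in the next 29-base windows, in the gene's own direction. They are from Elavl1 itself and from Lpl, encoding lipoprotein lipase. In the Elavl1 window further copies overlap the first and are left in lower case.
Elavl1, chr8:4285788-4285816 (minus strand): gtcatgaaaaTTATTTATTtatttattta
Lpl, chr8:68906671-68906699 (plus strand): agctttcaatTTATTTATTagctgtaaat
The Elavl1 3′UTR held 8 such nonamers, overlapping copies counted, and 17 ATTTA pentamers in 4218 bases, and that of Lpl held 1 nonamer. The only other named gene with the nonamer was Gm43302, which held 1 and was called lower (log2 fold change -2.46). Of the 40 named genes whose annotated 3′UTR was searched, the targeted gene, the largest changes and the most abundant DEGs, 22 held no ATTTA pentamer, among them Saa1, Lcn2, Mt1, Mt2, Hp and Hpx, and 18 held at least 1, among them Scd1 and Ptgr2 with 5 each and Acot1 with 4. Over all protein-coding genes with an annotated 3′UTR, at least 1 pentamer was present in 97 of 156 (62.2%) of those called higher, 60 of 105 (57.1%) of those called lower and 66.2% of the 12612 tested. The nonamer was present in 7.05%, 5.71% and 7.07%, respectively. These shares depend on length, and the median 3′UTR was 873 bases in the higher, 603 in the lower and 994 in the tested genes. Per 1000 bases there were 1.55, 1.97 and 1.81 pentamers, respectively.

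The 6 libraries held between 31956699 and 35540263 counts. The first principal component of the 6 libraries, with 37.4% of the variance, separated the labels, with WT between -27.1 and -20.4 and HuRHep-/- between 14.1 and 31.4. HuRHep-/- replicate 3 stood nearest to WT. Values below are normalized counts, that is counts divided by a library factor and set to a common depth, with log2 fold changes of HuRHep-/- over WT ± SE from limma and p-values adjusted by the Benjamini-Hochberg method over all genes tested. A gene was called differentially expressed (a DEG) where this p did not exceed 0.05, the groups differed 1.5-fold or more and neither group's 3 livers together held fewer than 10 counts.

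The targeted gene did not fall. Elavl1 had 973, 932 and 978 normalized counts in WT replicates 1 to 3 and 1358, 1247 and 1229 in HuRHep-/- replicates 1 to 3. All 3 HuRHep-/- livers were therefore above all 3 WT livers, a log2 fold change of 0.41 ± 0.07 (adjusted p = 0.0219), against the direction that a deletion label implies. An exact two-sided permutation test gave p = 0.1, the smallest that 3 against 3 livers allow. The counts are summed over the whole gene and do not resolve its exons. They therefore cannot check the deletion, and the cause of the higher counts was not tested. For this reason the groups are named as labelled, and every direction below is that of the libraries labelled HuRHep-/- against the libraries labelled WT. In the HFCF livers Elavl1 was also higher in the libraries labelled HuRHep-/- (0.38, adjusted p = 0.0327).

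Of the 13526 genes, 303 were DEGs (2.24%), of which 172 were higher (1.27%) and 131 lower (0.969%) in HuRHep-/-. The 3 livers of one label lay entirely to one side of the other in all 303, as they did in 3994 of all genes tested (29.5%). By adjusted p alone 572 genes passed (4.23%), at an unadjusted p under 0.05 3185 genes did (23.5%), and 6887 genes (50.9%) had a log2 fold change above 0, with a median over all genes of 0.005. The DEGs comprised 263 protein-coding genes and 40 others, among them 12 antisense RNAs, 11 processed transcripts and 8 lincRNAs. Changes were of moderate size. The median DEG differed 1.83-fold, 120 differed at least 2-fold (84 higher and 36 lower) and 23 at least 4-fold.

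**Figure D1:**
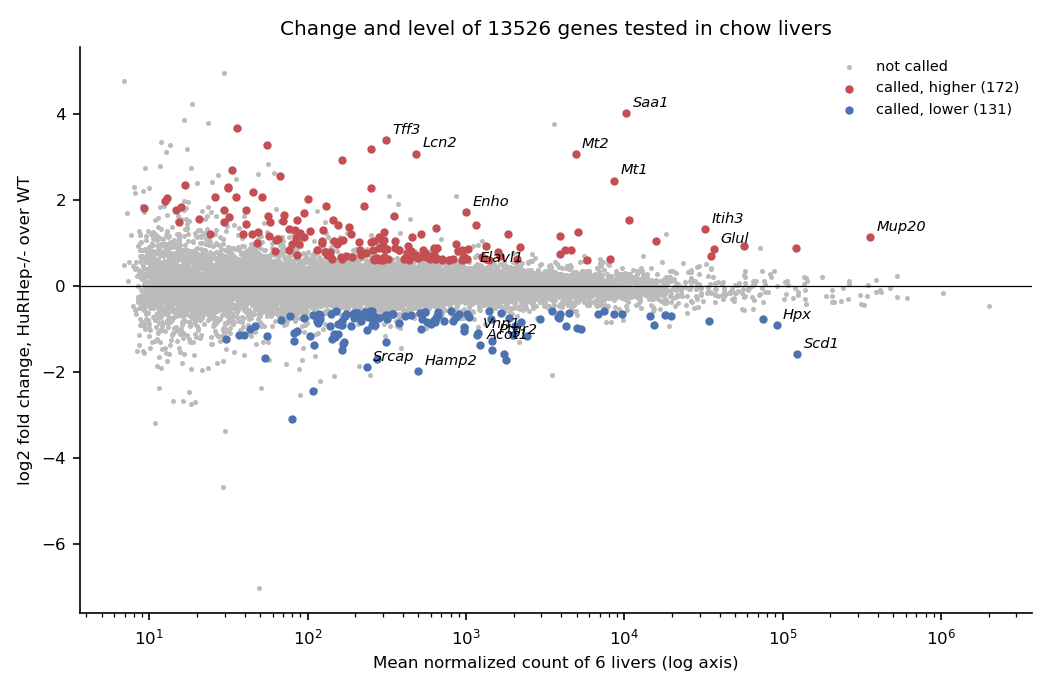
Log2 fold change of HuRHep-/- over WT chow livers (y axis) against mean normalized count on a log axis (x axis) for the 13526 genes tested, with DEGs in colour by direction. The 172 higher DEGs reach farther from 0 than the 131 lower ones, and 17 of all DEGs have a mean of at least 10000.

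Most calls rested on having all 6 livers. Without HuRHep-/- replicate 2 the same rule called 4 genes higher and 4 lower, without WT replicate 3 it called 39 and 40, without HuRHep-/- replicate 1 44 and 51, and without WT replicate 1 54 and 56. The fits without WT replicate 2 (163 and 115) and without HuRHep-/- replicate 3 (169 and 151) gave counts near those of all livers. All 303 DEGs kept their sign in each of these 6 fits, which follows from groups that do not overlap and is no added support. Only 7 DEGs were called in every one, namely Ptgr2, Tmem250-ps, Slc13a3, A430018G15Rik, Tmem265, Atp4a and Ehhadh. A further 48 were called in 5 of the 6, so that 55 were called in at least 5. HuRHep-/- replicate 3 was the nearest of its group to WT in 104 of the 172 higher and 72 of the 131 lower DEGs. For every other DEG named below, therefore, at least 1 of these 6 fits did not call it. The medians of gene lists given below rest on single livers too, since 55 of the 63 moved by over 1.5 times or changed sign in at least 1 of the 6 fits, 27 of them in sign.

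**Figure D2:**
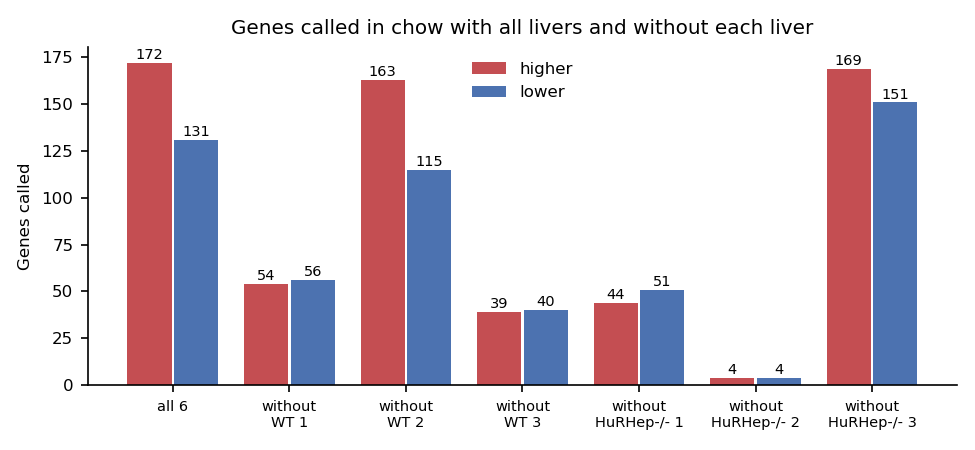
Number of DEGs (y axis), higher and lower, in the fit of all 6 chow livers and in the 6 fits that each leave out 1 liver (x axis). The calls range from 4 higher and 4 lower without HuRHep-/- replicate 2 to 169 higher and 151 lower without HuRHep-/- replicate 3.

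Several acute-phase and metal-binding proteins rose. Of 32 tested inducible acute-phase proteins, 9 rose (Saa1, Saa3, Lcn2, Mt1, Mt2, Hp, Itih3, Itih4 and Lrg1) and 2 fell (Hpx and Hamp2), while 21 did not pass. The median over the 32 was 0.26, against 0.005 over all genes, and 23 were above 0. The count depended on single livers. No member was called without HuRHep-/- replicate 2 and 12 were called without HuRHep-/- replicate 3, while the median stayed between 0.18 and 0.43 in all 6 such fits.

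Saa1 encodes serum amyloid A1, an apolipoprotein of the acute phase. It had 669, 1764 and 700 normalized counts in WT and 15923, 36968 and 5842 in HuRHep-/-. The HuRHep-/- livers differed widely among themselves yet all lay above every WT liver, a 16.1-fold rise (log2 fold change 4.01 ± 0.64, adjusted p = 0.0211). The log2 fold change was 3.36 without HuRHep-/- replicate 2 and 4.69 without HuRHep-/- replicate 3. Its close copy Saa2, with which it shares much of its sequence (47.3% of the 31-base words of Saa1 occur in other genes, so the split of reads between copies is uncertain), had 209, 694 and 225 in WT and 5012, 14278 and 1104 in HuRHep-/-. Saa2 did not pass (3.75 ± 0.87, adjusted p = 0.0549). Saa3, made by macrophages as well as hepatocytes, had 167, 141 and 173 in WT and 401, 881 and 346 in HuRHep-/-, and rose (1.63 ± 0.32, adjusted p = 0.0354). In all 3 Saa genes the highest liver was HuRHep-/- replicate 2 and the lowest HuRHep-/- liver was replicate 3.

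Lcn2, encoding lipocalin 2, which binds bacterial iron carriers, had 57.1, 146 and 77.4 in WT and 791, 1530 and 319 in HuRHep-/- (3.07 ± 0.55, adjusted p = 0.0286). The order of the HuRHep-/- livers was that of Saa1, and the log2 fold change was 2.53 without HuRHep-/- replicate 2 (adjusted p = 0.10) and 3.66 without HuRHep-/- replicate 3. Orm2, encoding an orosomucoid, had 315, 293 and 203 in WT and 1585, 2410 and 379 in HuRHep-/-, without overlap, and did not pass (2.09 ± 0.60, adjusted p = 0.0921). Tff3, encoding trefoil factor 3, a secreted mucosal repair peptide, had 20.7, 70.2 and 57.8 in WT and 581, 985 and 171 in HuRHep-/- (3.38 ± 0.67, adjusted p = 0.037). Its log2 fold change was 2.83 without HuRHep-/- replicate 2 (adjusted p = 0.134) and 4.09 without HuRHep-/- replicate 3. Il22ra1, the receptor chain for interleukin 22, rose from 3.11, 5.32 and 7.22 to 38.7, 30.6 and 16.6 (2.33 ± 0.46, adjusted p = 0.0366), and was not called in any fit that left out a liver. Neutrophils also carry Lcn2. Of 15 neutrophil markers counted, 10 had a mean under 10 normalized counts, and the summed level of the list without Lcn2 was 100 to 130 in WT and 102 to 156 in HuRHep-/-.

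The abundant plasma proteins moved less in fold and more evenly. Itih3, encoding an inter-alpha-trypsin inhibitor heavy chain that stabilises hyaluronan, had 19528, 19782 and 16190 in WT and 49537, 51957 and 36916 in HuRHep-/- (1.31 ± 0.14, adjusted p = 0.00801), and was lost only without HuRHep-/- replicate 2 (adjusted p = 0.052). Itih4 had 37540, 40211 and 38734 in WT and 80285, 83388 and 60969 in HuRHep-/- (0.93 ± 0.13, adjusted p = 0.0131). For both, the WT livers lay close together, while the HuRHep-/- livers were spread about as widely as the gap between labels. Hp, encoding haptoglobin, which captures free haemoglobin, had 86342, 84867 and 83077 in WT and 163078, 200010 and 116455 in HuRHep-/- (0.88 ± 0.19, adjusted p = 0.0456). Lrg1, encoding leucine-rich alpha-2 glycoprotein, went from 9099, 13436 and 8686 to 23511, 25118 and 15339 (1.03 ± 0.22, adjusted p = 0.0457). Fgl1, encoding the hepatokine fibrinogen-like 1, went from 5175, 6155 and 4794 to 18742, 19726 and 9795 (1.52 ± 0.25, adjusted p = 0.0219). In each of these, HuRHep-/- replicate 3 was the lowest of its group and was still above all WT livers.

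Hpx went the other way. It encodes hemopexin, which binds free heme and is usually classed with haptoglobin as an acute-phase protein. It had 113415, 119443 and 124756 in WT and 65279, 75399 and 51622 in HuRHep-/-, and fell by 0.91 ± 0.15 on the log2 scale (adjusted p = 0.0213). The groups did not overlap in Hp or Hpx, so their opposite directions had to hold in each of the fits that left out a liver.

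**Figure D3:**
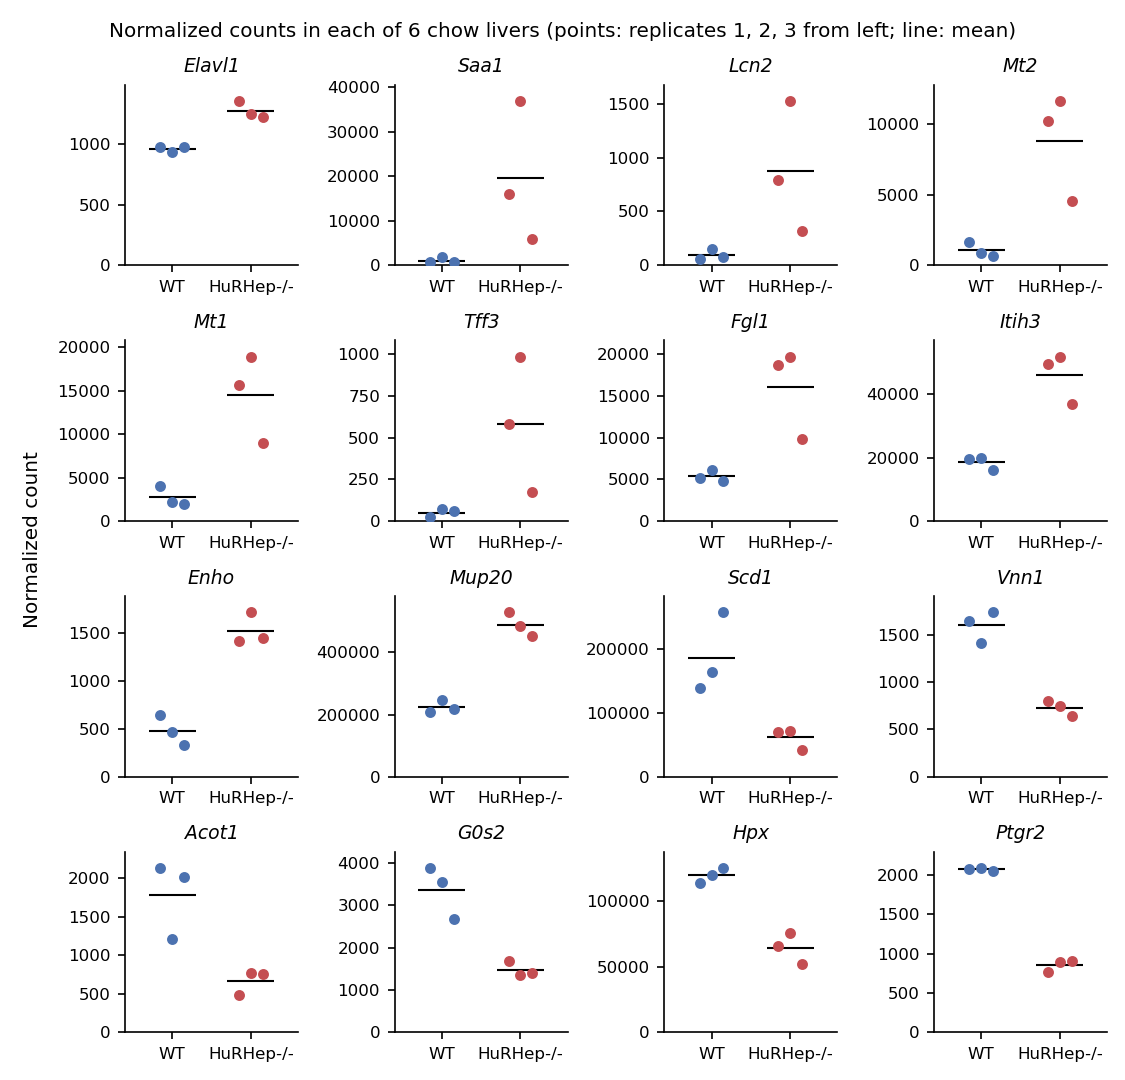
Normalized counts (y axis, linear from 0, 1 panel per gene) of 16 genes in each of the 3 WT and 3 HuRHep-/- chow livers (x axis), 1 point per liver in the order of the replicate numbers and a line at the group mean. Saa1 runs from 669 to 36968 over the livers, Ptgr2 is nearly level within each label, and neither these nor the other panels overlap between labels.

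Negative acute-phase proteins, those known to fall in inflammation, gave no call among 13 tested by limma, with 4 at an unadjusted p under 0.05 and a median of -0.19. Of the 13, 11 were below 0, and Fetub, encoding fetuin B, was lower by adjusted p alone (-0.41 ± 0.07, adjusted p = 0.0222). Alb, encoding albumin, had 2496725, 2017129 and 2510431 in WT and 1570506, 1757675 and 1688863 in HuRHep-/-, without overlap (-0.48, adjusted p = 0.359). The signalling genes upstream of the acute phase showed no call either. None of 21 IL-6 and STAT3 genes passed (3 at an unadjusted p under 0.05, median -0.04), nor any of 24 NF-kB and TNF genes (4, median 0.13), 42 interferon-stimulated genes (7, median -0.04) or 26 chemokines and receptors (7, median -0.04). Socs3, an early target of STAT3, had 381, 252 and 319 in WT and 896, 475 and 373 in HuRHep-/-. The lowest HuRHep-/- value was just below the highest WT value, and the gene did not pass (0.79 ± 0.30, adjusted p = 0.173). Il1rap, the accessory chain of the IL-1 receptor, was a DEG outside these lists and fell by 0.60 (adjusted p = 0.0118). Among other secreted groups, 1 of 29 complement components (Masp1, a lectin-pathway protease, 0.64) and none of 29 coagulation factors and inhibitors were called, the latter with 8 at an unadjusted p under 0.05.

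Of 24 metallothioneins and zinc transporters, 3 rose and none fell, with a median of 0.09. Mt1 had 4042, 2132 and 1933 in WT and 15689, 18933 and 9012 in HuRHep-/-, a 5.44-fold rise (2.44 ± 0.34, adjusted p = 0.0131). Mt2 had 1679, 892 and 639 in WT and 10230, 11654 and 4559 in HuRHep-/-, an 8.27-fold rise (3.05 ± 0.42, adjusted p = 0.0135). In both genes the lowest HuRHep-/- liver had more than the highest WT liver. Their promoter windows are those shown with capitals above. Slc39a5, a zinc importer, rose from 11.4, 9.57 and 18.6 to 57.1, 52.3 and 29.2 (1.76 ± 0.37, adjusted p = 0.0427). Metallothioneins are induced both by zinc and in the acute phase, and Mt1 and Mt2 are members of both lists. Of the exon bases of Mt2, 73.5% overlap the opposite-strand gene Gm45774, and the methods name a strand-specific alignment.

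Of 33 iron-handling genes, 2 rose and 3 fell (median 0.01). Hamp and Hamp2 encode hepcidin peptides, of which Hamp is the regulator of iron export. Hamp2 had 460, 469 and 1542 in WT and 192, 140 and 197 in HuRHep-/- (-1.99 ± 0.43, adjusted p = 0.0473). WT replicate 3 was far above the other WT livers, and without it the log2 fold change was -1.41. Hamp had 33944, 23738 and 32419 in WT and 18874, 15396 and 24128 in HuRHep-/-, with overlap, and did not pass (-0.63 ± 0.19, adjusted p = 0.10). Of the 31-base words of Hamp2, 31.4% occur in other genes. The third to fall, besides Hamp2 and Hpx, was Bdh2, which makes a mammalian iron-binding siderophore (-0.84 ± 0.15, adjusted p = 0.0255), and the members that rose were Lcn2 and Hp. Outside this list, Flvcr2, a heme and choline transporter, rose from 91.3, 42.5 and 98 to 246, 223 and 171 (1.53 ± 0.32, adjusted p = 0.0416).

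In lipid metabolism, genes were called in both directions. PPARalpha is the nuclear receptor that drives fatty acid oxidation genes. Of its 29 tested targets 4 fell (Ehhadh, Vnn1, Acot1 and Cd36) and 1 rose (Ucp2), with a median of -0.25 (-0.14 without WT replicate 3) and 12 above 0. Leaving out a liver gave between 1 and 8 calls on this list. Of 38 genes of fatty acid oxidation and ketogenesis, 2 fell and none rose, and 6 were lower by adjusted p alone (median -0.08).

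Ehhadh, the bifunctional enzyme of peroxisomal beta-oxidation, had 8358, 8180 and 8653 in WT and 5229, 5767 and 4979 in HuRHep-/- (-0.66 ± 0.07, adjusted p = 0.00756). Vnn1, encoding the pantetheinase vanin 1, had 1653, 1416 and 1740 in WT and 797, 751 and 640 in HuRHep-/- (-1.14 ± 0.11, adjusted p = 0.00708). Both were tightly grouped within a label. Acot1, which cleaves fatty acyl-CoA, fell from 2128, 1204 and 2016 to 489, 773 and 755 (-1.39 ± 0.25, adjusted p = 0.0283). Cd36, a fatty acid uptake protein, fell from 1159, 1019 and 1700 to 725, 608 and 599 (-0.97 ± 0.18, adjusted p = 0.0306). Acaa1b, a peroxisomal thiolase, fell from 41125, 39297 and 50522 to 24706, 27657 and 22178 (-0.81 ± 0.12, adjusted p = 0.0184), and 45.7% of its 31-base words occur in other genes. Eci1 (-0.49), Acsl5 (-0.48), Slc25a20 (-0.47) and Retsat (-0.51) passed the adjusted p but not the fold. Ucp2, a mitochondrial carrier and also a PPARalpha target, rose from 558, 820 and 598 to 1031, 1316 and 1060 (0.80 ± 0.16, adjusted p = 0.037).

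Scd1, encoding the stearoyl-CoA desaturase that makes monounsaturated fatty acids, was among the most abundant DEGs. It had 138152, 163518 and 256704 in WT and 70117, 71930 and 42176 in HuRHep-/-, a 3.01-fold fall (-1.59 ± 0.28, adjusted p = 0.026). WT replicate 3 was the highest, and without it the log2 fold change was -1.33. Acss2, which makes acetyl-CoA from acetate, fell from 4065, 5916 and 6975 to 2874, 2825 and 2962 (-0.93 ± 0.17, adjusted p = 0.0306). These were the 2 calls among 29 lipogenesis genes (median -0.05). G0s2, an inhibitor of the triglyceride lipase ATGL, was the 1 call among 22 lipid droplet proteins and fell from 3873, 3549 and 2671 to 1689, 1363 and 1394 (-1.17 ± 0.15, adjusted p = 0.011).

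Lpl, which releases fatty acids from circulating triglyceride and is low in adult liver, rose from 684, 657 and 512 to 2378, 1510 and 1235 (1.42 ± 0.23, adjusted p = 0.0212). Apoa4, an apolipoprotein of triglyceride-rich particles, rose from 2728, 2928 and 3162 to 10614, 6046 and 5201 (1.24 ± 0.23, adjusted p = 0.0325). HuRHep-/- replicate 1 was the highest in both. Lpl and Apoa4 were the 2 calls among 24 apolipoprotein and lipoprotein assembly genes (median -0.09). In the cholesterol synthesis list, 2 of 30 rose (Msmo1, 0.73, and Hsd17b7, 0.66) and 1 fell (Tm7sf2, -0.63), with a median of 0.22 that was 0.11 without WT replicate 1. All of these encode enzymes of the steps after lanosterol. Msmo1 had 2309, 2962 and 3660 in WT and 4931, 5330 and 4337 in HuRHep-/-. Sqle, squalene epoxidase, did not pass (0.94 ± 0.25, adjusted p = 0.0815). Bile acid synthesis and conjugation (0 of 22 called, 5 at an unadjusted p under 0.05) and gluconeogenesis, glycolysis and glycogen (0 of 40, 7 at an unadjusted p under 0.05) gave no DEG.

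Genes that differ between male and female liver under growth hormone were described because Mup20 and several of the genes above belong to them. Of 46 female-biased genes, 5 fell (Vnn1, Acot1, Cd36, Hamp2 and Serpinb1a) and 1 rose (Lpl). The median of -0.31 was -0.15 without WT replicate 3 and -0.40 without WT replicate 2, and leaving out a liver gave between 0 and 6 calls. The members that fell are mostly the lipid genes already given. Of 44 male-biased genes 1 rose and 1 fell (median -0.07), and none of 17 genes from the growth hormone receptor to STAT5 was called (4 at an unadjusted p under 0.05). Mup20, encoding the urinary pheromone darcin, rose from 206795, 247712 and 216711 to 528458, 485879 and 452800 (1.13 ± 0.16, adjusted p = 0.0131). It was the 1 call among 21 major urinary proteins (median 0.04), whose copies are near-identical, and 64.5% of its 31-base words occur in other genes, so its count is uncertain. Cyp3a41b, a cytochrome P450 gene with 95.9% of its words shared, had 46.7, 72.3 and 29.9 in WT and 0, 0 and 26.3 in HuRHep-/-, and did not pass. Dio1, which activates thyroid hormone, rose from 3179, 3580 and 3245 to 4979, 5736 and 7114 (0.82 ± 0.12, adjusted p = 0.0184).

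Along the axis of the liver lobule, calls fell on both sides. Of 39 pericentral genes 3 rose (Glul, Slc13a3 and Ang) and 1 fell (Cyp2c54), with a median of 0.07. Of 37 periportal genes 4 rose (Mup20, Aldh1b1, Cdh1 and Apoa4) and none fell, with a median of 0.02. Glul, glutamine synthetase of the last pericentral hepatocyte layer, had 25901, 26583 and 25979 in WT and 44144, 42343 and 56559 in HuRHep-/- (0.85 ± 0.12, adjusted p = 0.0131). Slc13a3, a dicarboxylate importer, had 337, 419 and 351 in WT and 964, 886 and 937 in HuRHep-/- (1.34 ± 0.10, adjusted p = 0.0039), and was one of the 7 genes called whichever liver was left out. Ihh, the hedgehog ligand, rose from 44.6, 48.9 and 78.4 to 189, 242 and 179 (1.85 ± 0.24, adjusted p = 0.0118). Lrp5, a Wnt co-receptor, rose by 0.78 (adjusted p = 0.011). Rhbg, an ammonium transporter with a pericentral pattern, had 164, 248 and 137 in WT and 305, 346 and 431 in HuRHep-/-, and did not pass (1.01 ± 0.23, adjusted p = 0.0511). Ang and Rnase4 are secreted ribonucleases that share a promoter region. Ang rose by 0.61 (adjusted p = 0.0224), and Rnase4 rose from 26795, 27247 and 26472 to 47403, 45233 and 38579 (0.70 ± 0.09, adjusted p = 0.013).

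Secreted hepatokines gave 2 calls among 34 (median -0.04). Enho, encoding adropin, a peptide linked to glucose and lipid balance, had 639, 468 and 334 in WT and 1411, 1714 and 1445 in HuRHep-/- (1.71 ± 0.21, adjusted p = 0.011). Fst, the activin antagonist follistatin, had 42.5, 38.3 and 41.3 in WT and 98.5, 104 and 64.3 in HuRHep-/- (1.09 ± 0.22, adjusted p = 0.04). Both lay wholly above WT. Enho was called in 5 of the 6 fits that left out a liver and Fst in 1. Fgl1, given above, is a hepatokine too but was not on that list.

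Genes of RNA processing are of interest because HuR binds RNA. Of 54 splicing factors 2 fell and none rose, with a median of -0.03. Srsf9, a serine and arginine-rich splicing factor, had 691, 646 and 658 in WT and 411, 464 and 424 in HuRHep-/- (-0.62 ± 0.08, adjusted p = 0.0118). Hnrnph3, a nuclear ribonucleoprotein, had 599, 676 and 598 in WT and 393, 376 and 440 in HuRHep-/- (-0.63 ± 0.09, adjusted p = 0.0172). The labels did not overlap in either gene. Some DEGs outside these lists were picked after their values were seen and because they fell, so they say nothing of RNA genes as a group. They were Ddx23, a spliceosomal helicase (-0.73, adjusted p = 0.00708), Alyref (-0.73, adjusted p = 0.0118) and Alyref2 (-1.06, adjusted p = 0.0225), which load mRNA export factors, Sfpq, a paraspeckle protein (-0.59, adjusted p = 0.0192), and Hexim1, an inhibitor of transcription elongation (-0.83, adjusted p = 0.011).

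Eif4a2, a helicase of translation initiation, fell from 8885, 9008 and 9039 to 5574, 6326 and 5915 (-0.60 ± 0.07, adjusted p = 0.00756), and Eif4ebp2, which restrains the cap-binding factor eIF4E, rose by 0.63 (adjusted p = 0.0288). They were the 2 calls among 63 translation factors. None of 31 AU-rich element binding proteins was a DEG, with 5 at an unadjusted p under 0.05. Of these, Elavl1 was higher and Pcbp2 lower (-0.38 ± 0.06, adjusted p = 0.0184) by adjusted p alone. None of 47 mRNA decay enzymes was called (8 at an unadjusted p under 0.05, median 0.07). Among the 7 mRNAs that the study tested as HuR targets, Gstm6, a glutathione S-transferase, was a DEG (-0.72 ± 0.15, adjusted p = 0.0408). The other members were not, with log2 fold changes of -0.71 for Gsta4, -0.09 for Mfn2, -0.04 for Dnm1l, 0.24 for Nfe2l2, 0.06 for Gclc and 0.16 for Gclm. Gsta4 reached the fold but not the adjusted p, and the study made its own calls with other software. The study had seen the glutathione S-transferases in these livers, so the fall of Gstm6 is not independent evidence of its direction. Among 83 cytosolic ribosomal protein genes 79 were below 0 in log2 fold change, with a median of -0.16 and no DEG (28 at an unadjusted p under 0.05). Of 79 nuclear genes of the respiratory chain 72 were below 0, also with a median of -0.16 and no DEG (15 at an unadjusted p under 0.05). Rpl10a (-0.39), Rpl22l1 (-0.47) and Cox5b (-0.49) passed the adjusted p there without reaching the fold.

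**Figure D4:**
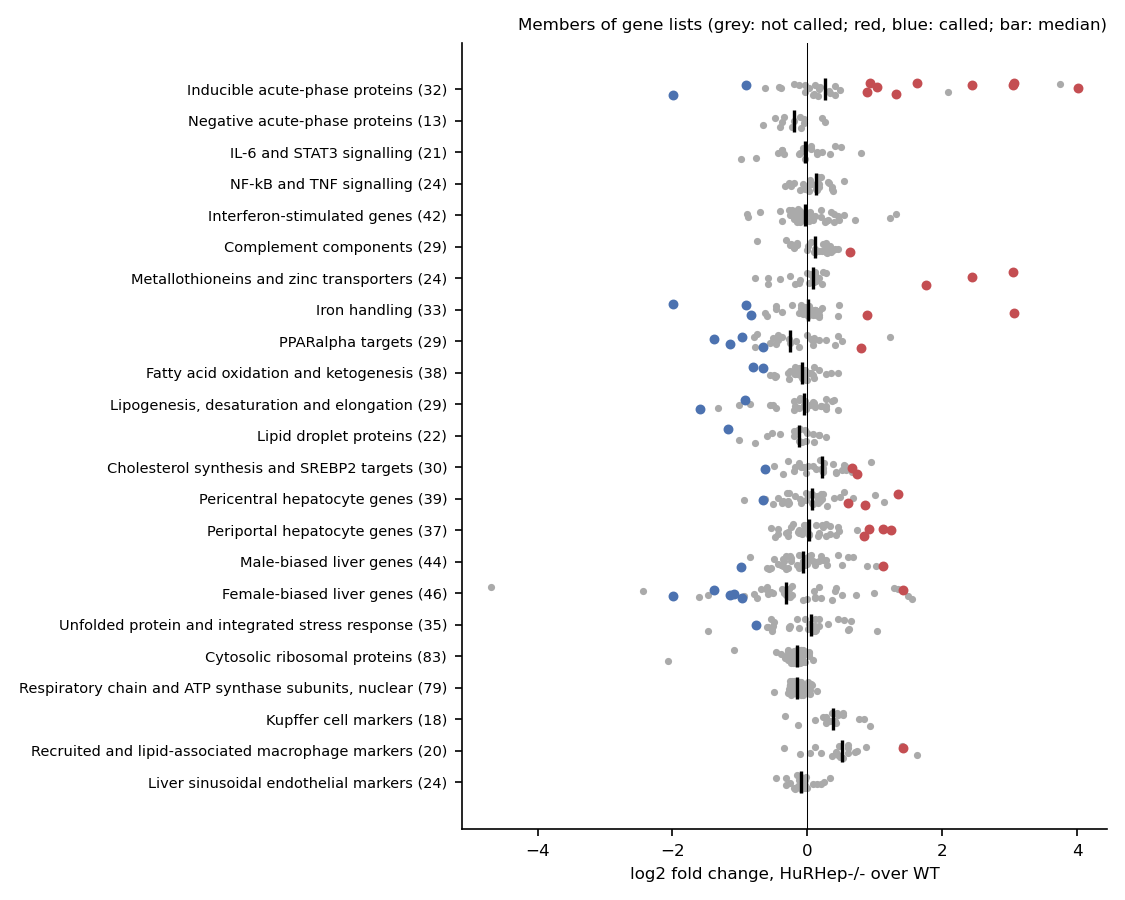
Log2 fold change of HuRHep-/- over WT chow livers (x axis) of each tested member of the gene lists (y axis, number tested in parentheses), with higher DEGs in red, lower in blue, others in grey and a bar at each list's median. The inducible acute-phase list has 9 higher and 2 lower DEGs, and the ribosomal and respiratory chain lists have medians of -0.16 with none.

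Other lists of liver function held few DEGs or none. None was called among 27 hepatocyte identity transcription factors (9 at an unadjusted p under 0.05, median -0.06), and Hnf4a, the main factor of hepatocyte identity, did not pass (-0.06 ± 0.09, adjusted p = 0.743). Amino acid catabolism had no DEG among 53 genes, although 22 were at an unadjusted p under 0.05 and Prodh, proline dehydrogenase, passed the adjusted p alone (0.52 ± 0.10, adjusted p = 0.0351). Methionine and one-carbon metabolism likewise had none of 27 (9 at an unadjusted p under 0.05), proteasome subunits none of 47 (5), mitochondrial ribosomal proteins none of 78 (11) and the mRNAs of the mitochondrial genome none of 13 (0). Of 18 urea cycle and ammonia genes Glul was the 1 call. Among 54 lysosomal hydrolases and proton pump subunits 1 rose, Galns, which degrades keratan sulfate (0.82 ± 0.10, adjusted p = 0.0106), with 38 above 0 and a median of 0.11. Uox, urate oxidase, had a log2 fold change of -0.54 ± 0.09 (adjusted p = 0.0254), which is under the 1.5-fold limit, and was not called.

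Stress genes gave few calls. Of 35 genes of the unfolded protein and integrated stress response 1 fell, Pdia4, a disulfide isomerase of the endoplasmic reticulum, from 4637, 4579 and 5391 to 2901, 2947 and 2744 (-0.76 ± 0.08, adjusted p = 0.00708). The NRF2 (25 genes), p53 (28), heat shock (28) and cell cycle (44) lists held no DEG, with 6, 6, 7 and 11 at an unadjusted p under 0.05 and medians of 0.03, 0.18, -0.09 and 0.21. The p53 median was 0.07 without HuRHep-/- replicate 1, and the cell cycle median was 0.07 without HuRHep-/- replicate 2. No list of cell death genes was tested, and the next 4 genes were named after their values were seen. Gsdmd, the pore-forming gasdermin of pyroptosis, rose from 669, 808 and 717 to 1411, 1301 and 1236 (0.85 ± 0.09, adjusted p = 0.00756). Mlkl, the executor of necroptosis, rose by 0.97 (adjusted p = 0.0455), and Bcl2l11, the pro-apoptotic protein BIM, rose by 0.67 (adjusted p = 0.0288). Nlrp6, an inflammasome sensor, fell by 0.77 (adjusted p = 0.0219). None of 23 clock genes was called (4 at an unadjusted p under 0.05), and their median of -0.24 was -0.03 without HuRHep-/- replicate 1. Cry1, a repressor of the clock, had 241, 153 and 237 in WT and 95.8, 90.7 and 145 in HuRHep-/-, without overlap (-0.93 ± 0.24, adjusted p = 0.0744).

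Several DEGs with the smallest adjusted p belonged to none of these groups. Ptgr2, encoding prostaglandin reductase 2, which inactivates 15-keto-prostaglandins, had 2082, 2088 and 2053 in WT and 772, 898 and 902 in HuRHep-/- (-1.28 ± 0.08, adjusted p = 0.00186). Tmem250-ps, named as a pseudogene, had 2260, 2143 and 2052 in WT and 866, 730 and 698 in HuRHep-/- (-1.50 ± 0.09, adjusted p = 0.00186). Their libraries were nearly level within a label. Atp4a, encoding the gastric proton pump subunit, rose from 22.8, 17 and 17.5 to 104, 115 and 123 (2.55 ± 0.20, adjusted p = 0.00428). The processed transcript A430018G15Rik fell from 138, 152 and 137 to 12, 16.8 and 20.5 (-3.11 ± 0.23, adjusted p = 0.0039). Of its exon bases, 83.7% overlap Cacnb4, a calcium channel subunit gene on the opposite strand.

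Neighbouring genes on chromosome 7 moved in opposite directions. Tmem265 rose from 95.4, 93.6 and 100 to 346, 295 and 427 (1.86 ± 0.15, adjusted p = 0.00428), and Srcap, a chromatin remodelling ATPase, fell from 282, 442 and 393 to 113, 87.7 and 95.5 (-1.89 ± 0.19, adjusted p = 0.00708). Both overlap the gene model Gm42715 on the same strand, over 100% of the exon bases of Tmem265 and 61.7% of those of Srcap, so the split of reads among the 3 models is uncertain. Gm42715 itself had means of 854 and 1093 and did not pass (0.36 ± 0.12, adjusted p = 0.131). Such overlap of at least 20% on the same strand affected 19 of the 303 DEGs, and on the opposite strand another count of 19. In the shared Ugt1a locus, whose isoforms use common last exons, Ugt1a9 rose (1.15 ± 0.14, adjusted p = 0.0104) while Ugt1a5 (-1.73 ± 0.26, adjusted p = 0.0172) and Ugt1a1 (-0.71 ± 0.07, adjusted p = 0.00746) fell. Of the 31-base words of these 3 genes, 67.8%, 65.3% and 58.5%, respectively, occur in other genes.

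Some other genes among the largest changes with means of at least 100 were picked by description, as not usually prominent in liver. These picks say nothing of such genes as a group. Mmd2, a membrane receptor family member, rose from 53.9, 84 and 132 to 362, 358 and 517 (2.26 ± 0.31, adjusted p = 0.0131). Adgrv1, a very large adhesion receptor, rose by 1.40 (adjusted p = 0.00756), and Rian, an imprinted noncoding RNA, rose from 38.4, 27.7 and 23.7 to 88.4, 220 and 600 (2.93 ± 0.60, adjusted p = 0.0414). The HuRHep-/- livers differed from each other in Rian by more than the lowest of them differed from WT, and the log2 fold change was 3.60 without HuRHep-/- replicate 1 and 2.23 without HuRHep-/- replicate 3. Among the falls were Cnmd, encoding chondromodulin (-1.50), Dct, a melanin pathway enzyme (-1.39), Olig1, a neural transcription factor (-1.35, from 204, 301 and 216 to 98.5, 84.8 and 95.5), Asic5, an ion channel (-1.24), and Chrnb2, a nicotinic receptor subunit (-1.18). Car3, the carbonic anhydrase abundant in male liver, fell from 108596, 84925 and 88814 to 46288, 52283 and 68203 (-0.77 ± 0.16, adjusted p = 0.0445). Of 15 carboxylesterase genes tested, a family looked at after its values were seen, 3 fell, Ces1b (-1.15), Ces1e (adjusted p = 0.0104) and Ces2e (-0.99), which hydrolyse esters and drugs, and none rose. Ces1c was among those that did not pass (-0.15, adjusted p = 0.429). The methyltransferase Inmt (-0.91), also named after its values were seen, fell as well.

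Markers of cell types were examined because these are whole livers, in which fewer cells of a type and less RNA per cell cannot be told apart. The hepatocyte list was high in every library, as the tissue label requires, and its summed level was 3046952 to 3701249 in WT and 2430332 to 2726742 in HuRHep-/-, without overlap. This sum is dominated by Alb, which did not pass (adjusted p = 0.359), and no sum without Alb was taken. Kupffer cell markers gave no DEG among 18, with 7 at an unadjusted p under 0.05, while 16 were above 0 (median 0.38, and 0.23 without HuRHep-/- replicate 2) and the summed level was 15816 to 17610 in WT and 18770 to 24281 in HuRHep-/-, also without overlap. Slc40a1 and Nr1h3 contributed most to this sum, and no sum without them was taken, so the separation may rest on them. The iron exporter Slc40a1 had 4051, 3313 and 3613 in WT and 4774, 5573 and 4742 in HuRHep-/-. It passed the adjusted p alone (0.46, adjusted p = 0.0428), and Cd5l, a secreted macrophage protein, did not (0.76, adjusted p = 0.0546). Of 20 markers of recruited and lipid-associated macrophages 18 were above 0 (median 0.51, and 0.34 without HuRHep-/- replicate 2). The 1 call was Lpl, and the sum without it was 3914 to 6351 in WT and 5239 to 6956 in HuRHep-/-, overlapping. The part of these macrophage markers in the rises of Saa3, Lpl and Lcn2 was not tested. For B and plasma cell markers 13 of 14 were above 0 with no DEG (2 at an unadjusted p under 0.05), and the median of 0.34 was 0.08 without WT replicate 1. Their summed level was 4965 to 6128 in WT and 6407 to 7539 in HuRHep-/-, without overlap, and most of it was Sdc1, which hepatocytes also express (0.31 ± 0.08, adjusted p = 0.0794). Without Sdc1 the sums were 556 to 1295 and 1086 to 1618, overlapping. Sinusoidal endothelial markers (24 tested, median -0.10), stellate cell markers (24, median -0.05) and T and NK cell markers (9, median -0.21, but 0.14 without HuRHep-/- replicate 1) held no DEG, with 2, 0 and 0 at an unadjusted p under 0.05. Among 26 collagens 1 was called, Col15a1, a basement membrane collagen, which rose from 17.6, 70.2 and 44.3 to 173, 165 and 135 (2.02 ± 0.44, adjusted p = 0.0473). The summed level of the collagens was 23628 to 26142 in WT and 30481 to 35973 in HuRHep-/-, without overlap, and most of it was Col18a1, a collagen that hepatocytes also make, which passed the adjusted p but not the fold (0.53 ± 0.07, adjusted p = 0.0131). Without Col18a1 the sums were 4330 to 6401 and 4284 to 6707, overlapping. The cholangiocyte list had 1 call of 18, Tff3, and its summed levels overlapped (15118 to 18896 and 13883 to 19785).

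The HFCF livers were separate mice counted in a separate table, so they show which chow differences were present under another condition. There, 517 of 14295 genes were DEGs (3.62%). Of the 302 chow DEGs tested in HFCF livers, 272 had the same sign and 86 were called there, 85 of them in the same direction. These 86 are 28.4% of the chow DEGs and 16.6% of the HFCF DEGs. Ptgr2 (-1.22), Tmem265 (2.17), Srcap (-2.07), Atp4a (2.71), A430018G15Rik (-2.64), Tmem250-ps (-1.72), Enho (2.09), Itih3 (0.85) and Hpx (-1.61) were called in both, with the HFCF log2 fold changes given.

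The inducible acute-phase list had a median of 0.27 in HFCF, beside 0.26 on chow, while several of its chow DEGs were not called in HFCF. There, the log2 fold change of Saa1 was 0.68 ± 0.32 (adjusted p = 0.21), that of Saa3 0.08 (adjusted p = 0.834), that of Mt2 1.23 (adjusted p = 0.312) and that of Lcn2 1.57 (adjusted p = 0.0937). Mean Saa1 in WT was 1044 on chow and 3487 on HFCF, with each table normalized on its own. Ehhadh was at -0.04 (adjusted p = 0.745), Scd1 at -0.27 (adjusted p = 0.537) and Mup20 at -0.28 (adjusted p = 0.505). Whether the label effect differed between diets was tested by an interaction term in limma over the 12 livers. It was called for 0 of 14535 genes (0%), with a smallest adjusted p of 0.0578. At an unadjusted p under 0.05 2086 genes differed, and with size factors by relative log expression the count of calls was again 0. The unadjusted interaction p was 3.75e-05 for Ehhadh, 2.06e-05 for Dio1, 0.000832 for Mup20 and 0.00174 for Saa1, with adjusted p of 0.0578, 0.0578, 0.131 and 0.153. A difference between diets was therefore not established for any of these genes.

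**Figure D5:**
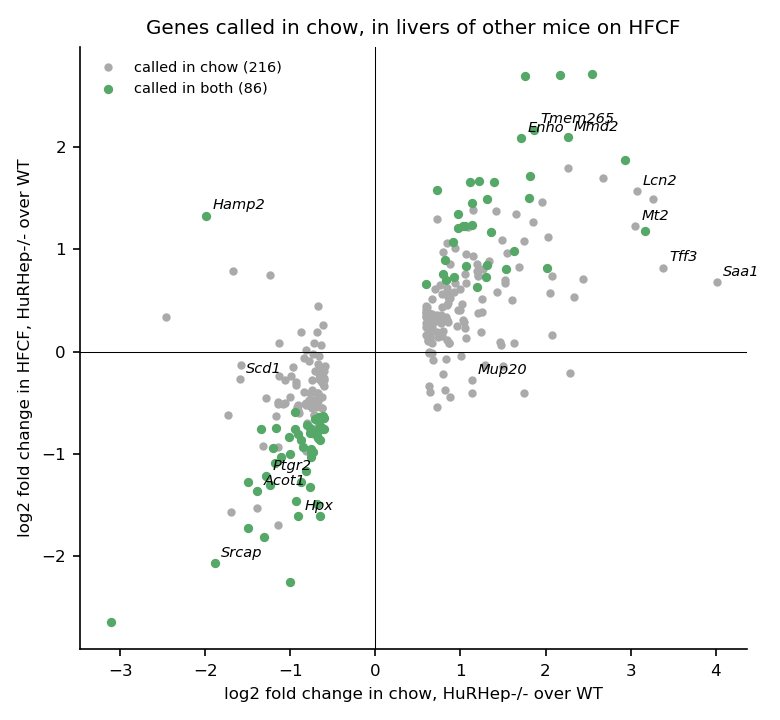
Log2 fold change of HuRHep-/- over WT in HFCF livers (y axis) against that in chow livers (x axis) for the 302 chow DEGs tested in both, coloured by whether they were also called in HFCF. Of the 302, 272 lie in the quadrants of equal sign and 86 were called in both, while Saa1 is at 4.01 on chow and 0.68 on HFCF.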

How the data were processed

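Total RNA of whole livers from 12 male mice was sequenced, with 3 libraries for each label and diet. Per the labels, RNA integrity numbers were above 6.0 and libraries were stranded (NEBNext). The authors aligned reads to GRCm38.p6 with CLC Genomics Workbench, whose version is not given in the sources used here, and deposited whole-number gene counts, 1 table per diet. Each of the deposited tables holds raw counts as text with commas as digit separators (21506 such values on chow), so they were recorded as another unit and a count model was not used; nothing was normalized by the authors in these files. Of 20775 chow identifiers 20703 matched GENCODE M21, 23 gene names had been turned into dates and were named by identifier, and 8 symbols were used by more than 1 identifier. The 6 chow libraries held 31956699 to 35540263 counts, no pair was identical, and every count column was mapped to a sample.

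Counts were scaled by TMM factors (0.9518 to 1.0597, own implementation) and tested as log2 CPM with a pseudocount of 0.5 in limma 3.58.1 (R 4.3.3, trend on, two-sided, Benjamini-Hochberg over 13526 genes). Genes needed 10 counts per median library in 3 libraries and 15 in all. The method was tested on simulated data first. Alternatives were other scalings, filters, pseudocounts, voom weights, a test against the fold threshold, a replicate block, a fit on 12 libraries and leaving out each liver. The part of each gene's 31-base words found in other genes was computed from GENCODE M21 transcripts, 3′UTRs were taken from the same annotation, and promoter windows from RefSeq.

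The genes and the 63 lists (12 of cell types) were chosen with earlier results of these data known. Named were Elavl1, the 15 largest rises and 15 largest falls among protein-coding DEGs with a mean of at least 100 whose groups did not overlap, the 10 most abundant DEGs, up to 4 called members per list with the smallest p (up to 2 where none was called), the extremes of some lists, and others named after their values were seen, among them Saa2, Orm2, Il22ra1, Dio1 and Rian.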

Additional observations from a re-analysis of the deposited data

Results flagged for a closer look

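Hamp2, one of the hepcidin genes, moved in opposite directions on the 2 diets. The libraries labelled HuRHep-/- were lower on chow (log2 fold change -1.99 ± 0.43, adjusted p = 0.0473) and higher on HFCF (1.33, adjusted p = 0.0311), a difference of 3.34 between diets. The interaction test in limma gave an unadjusted p of 8.11e-05 and an adjusted p of 0.0915 over 14535 genes, so the difference did not pass the correction. All 3 HuRHep-/- livers were below all WT livers on chow. Hamp2 shares 31.4% of its 31-base words with other genes.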

How the results depend on the processing

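Of the 303 DEGs, 172 higher and 131 lower, the counts stayed within 1.5 times under relative log expression factors (172 and 139), upper-quartile factors (155 and 136), no low-count filter (150 and 126), at least 10 counts in every library (161 and 133), a pseudocount of 2 (175 and 133), voom weights (154 and 122) and a fit on all 12 libraries (222 and 184). With the adjusted p alone 310 were higher and 262 lower, since no fold was required. A test against a fold of 1.5 (treat in limma) called 3 and 4. Leaving out 1 liver gave 4 to 169 higher and 4 to 151 lower, and the cause was not tested.

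Same-numbered livers were not treated as pairs in the main fit. Their deviations from the group means correlated at -0.03, 0.11 and -0.02, and those of other pairs between -0.15 and 0.15. With 3 livers a label this cannot exclude a pairing. The replicate block gave 121 higher and 105 lower.

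Elavl1 was at 0.36 to 0.44 when 1 liver was left out, past the adjusted p only without WT replicate 2 or HuRHep-/- replicate 3, and at 0.40 to 0.41 under the other settings. The HFCF count was 517 and, with relative log expression factors, 496. Over the fits that left out a liver, 2 of the 223 named genes turned sign, neither of them a DEG, both without HuRHep-/- replicate 3, namely Noct (0.35, range -0.18 to 1.1) and Itgax (-0.35, range -0.67 to 0.19). Of the 504 list medians recomputed, as alternatives added after seeing the data, 4 moved beyond the spread, all in lists of cell types: neutrophil to 0.57, erythroid to -0.53 and pancreas and gut to -0.10 without HuRHep-/- replicate 3, and sinusoidal endothelial to 0.08 without HuRHep-/- replicate 1. By the other rule, given earlier, 55 of the 63 list medians moved by over 1.5 times or changed sign without 1 liver. The count of 4 therefore does not mean that the medians were stable. The median SE of the genes tested was 0.13 on the log2 scale with 3 livers a label, which limits the detection of small changes.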
